A study of Mus musculus with 12 samples.

Results

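Arginine metabolism in heart macrophages was followed through 8 genes: the arginine transporter Slc7a2, the nitric oxide synthase Nos2, the citrulline-recycling enzyme Ass1, the arginases Arg1 and Arg2, and the polyamine enzymes Odc1, Srm and Sat1. They were picked from the table by symbol, each symbol had 1 entry among the 53801 genes of the count table, and all 8 were among the 14964 genes that passed the filter on low counts and were tested. RNA from sorted macrophages of mouse hearts was sequenced in bulk, with 3 libraries in each of 4 groups. All groups came from C57BL/6N mice given a myocardial infarction by ligation of the left anterior descending coronary artery, so there was no group without infarction. The genotypes were wild type (WT) and Bhlhe41dTomato-Cre+/- (here Bhlhe41Cre), in which 1 Bhlhe41 allele carries dTomato and Cre, and no second allele for the Cre to act on is named. Bhlhe41 encodes a transcriptional repressor. Within each genotype, macrophages were divided into CCR2low and CCR2hi cells. CCR2 binds the chemokine CCL2, and its surface level is used to separate recruited from resident heart macrophages. The labels name male mice and do not give the age, the time after infarction, the number of animals or how many were pooled. They do not say that numbered libraries come from separate animals, so each p-value measures only the spread between these libraries, which may be technical.

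Macrophages use arginine along competing routes. Nitric oxide synthase turns it into nitric oxide and citrulline, and Ass1 begins the return of citrulline to arginine. The arginases, Arg1 in the cytosol and Arg2 in mitochondria, split it into urea and ornithine, and ornithine decarboxylase (Odc1) then starts the polyamine pathway, in which spermidine synthase (Srm) adds the next unit and spermidine/spermine N1-acetyltransferase (Sat1) starts breakdown and export. High Nos2 is the textbook mark of classical macrophage activation in the mouse, and high Arg1 that of alternative activation.

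Several features of the libraries bear on every value below. Total counts per library ran from 17702018 to 20826688. Summed counts of 17 macrophage markers took 3.45 to 3.75% of all counts in WT CCR2low and 3.08 to 3.42% in Bhlhe41Cre CCR2low. In the CCR2hi groups they took 0.247 to 0.576% (WT) and 0.847 to 1.11% (Bhlhe41Cre), with none of the 17 at 0 in any library. Summed counts of 10 fibroblast markers, also with none at 0, ran the other way: 0.469 to 0.791% and 0.202 to 0.494% in the CCR2low groups, 7.21 to 8.05% in WT CCR2hi and 3.8 to 4.86% in Bhlhe41Cre CCR2hi. The 7 neutrophil markers took 0.0821 to 0.125% in Bhlhe41Cre CCR2hi against 0.00363 to 0.00812% in WT CCR2hi. The CCR2hi libraries thus carried low macrophage and high fibroblast marker levels for sorted macrophages, and the part of these shares in the results was not tested. In bulk RNA, fewer cells of a type and less RNA per cell cannot be told apart. Ccr2 itself was lower in CCR2low than in CCR2hi in WT (log2 fold change -1.06, adjusted p = 0.00825) and did not pass the test in Bhlhe41Cre (-0.01, adjusted p = 0.983). Bhlhe41 was lower in Bhlhe41Cre in both gates (-0.77, adjusted p = 0.0221 in CCR2low, and -2.23, adjusted p = 5.14e-05 in CCR2hi). Xist, the RNA that coats a silenced X chromosome, had 1403 to 3699 counts in the 6 Bhlhe41Cre libraries and 0 to 3 in the 6 WT libraries, against the male label, and both Bhlhe41Cre libraries numbered 3 had few counts from 4 Y-linked genes (105 and 182, against 668 to 1741 in the other 10). Genotype and this difference cannot be told apart.

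Levels below are in CPM (counts-per-million) scaled by the trimmed mean of M-values (TMM). A gene is called changed at an adjusted p under 0.05 in edgeR's quasi-likelihood test over all 12 libraries, with Benjamini-Hochberg adjustment over the 14964 genes, and every adjusted p is from that test unless another is named. Because the macrophage share differed between gates, each change was also computed with another scaling, called macrophage scaling. It set each library's scaling factor from the mean log2 CPM of the 17 macrophage markers (prior count 2), so each marker weighed equally. This scaling moved the median log2 fold change of all genes by -3.21 between the gates in WT, by -2.02 between the gates in Bhlhe41Cre, by -1.13 between genotypes in CCR2hi and by 0.05 between genotypes in CCR2low, so a sign between the gates depends on which of the scalings is used.

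Among the 8 genes, 7 were called between the WT gates, of which CCR2low was higher for 3 and lower for 4, where 59.8% of all genes tested were called (29.8% higher and 30.0% lower). Their median log2 fold change was -0.41, against 0.01 for all genes tested. Between the gates in Bhlhe41Cre, 7 were called, 4 higher and 3 lower, against a background of 54.1% (24.9% higher and 29.1% lower), with a median of 0.62 against -0.01. Between genotypes in CCR2low cells, 2 were called, both higher in Bhlhe41Cre, against 43.0% of all genes (16.4% higher and 26.7% lower), with a median of 0.37 against -0.18. The balance over all genes in this comparison turned over in other settings: 38% of called genes were higher, but 55.8% with a stricter filter on low counts, 52.4% with none, 53.3% with only the libraries compared, 51.8% without Bhlhe41Cre CCR2low replicate 3, and 55.5 to 56.8% without WT CCR2hi replicate 1 or any 1 Bhlhe41Cre CCR2hi library. Between genotypes in CCR2hi cells, 5 were called, 4 higher and 1 lower, against 32.1% of all genes (16.2% higher and 15.9% lower), with a median of 0.58 against -0.03. The test of whether the gate difference depends on genotype called 4, with 1 positive and 3 negative, where it called 12.6% of all genes (4.74% positive and 7.85% negative). With macrophage scaling the counts of the 8 genes higher and lower were 1 and 7, 0 and 7, 2 and 0, 2 and 3, and 2 and 1, in the same order. Of all genes tested, that scaling called 0.775% higher and 94.9% lower between the WT gates, and 0.495% and 91.0% between the Bhlhe41Cre gates. Between genotypes it called 6.53% and 10.6% in CCR2low and 1.79% and 70.8% in CCR2hi, and for the interaction 31.9% positive and 0.842% negative, so a lower call of one of the 8 genes between the gates is close to the background there. So many genes changed in each comparison that these counts alone do not set the 8 genes apart. The comparisons share groups: each gate comparison uses the same libraries as the genotype comparisons.

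**Figure D1:**
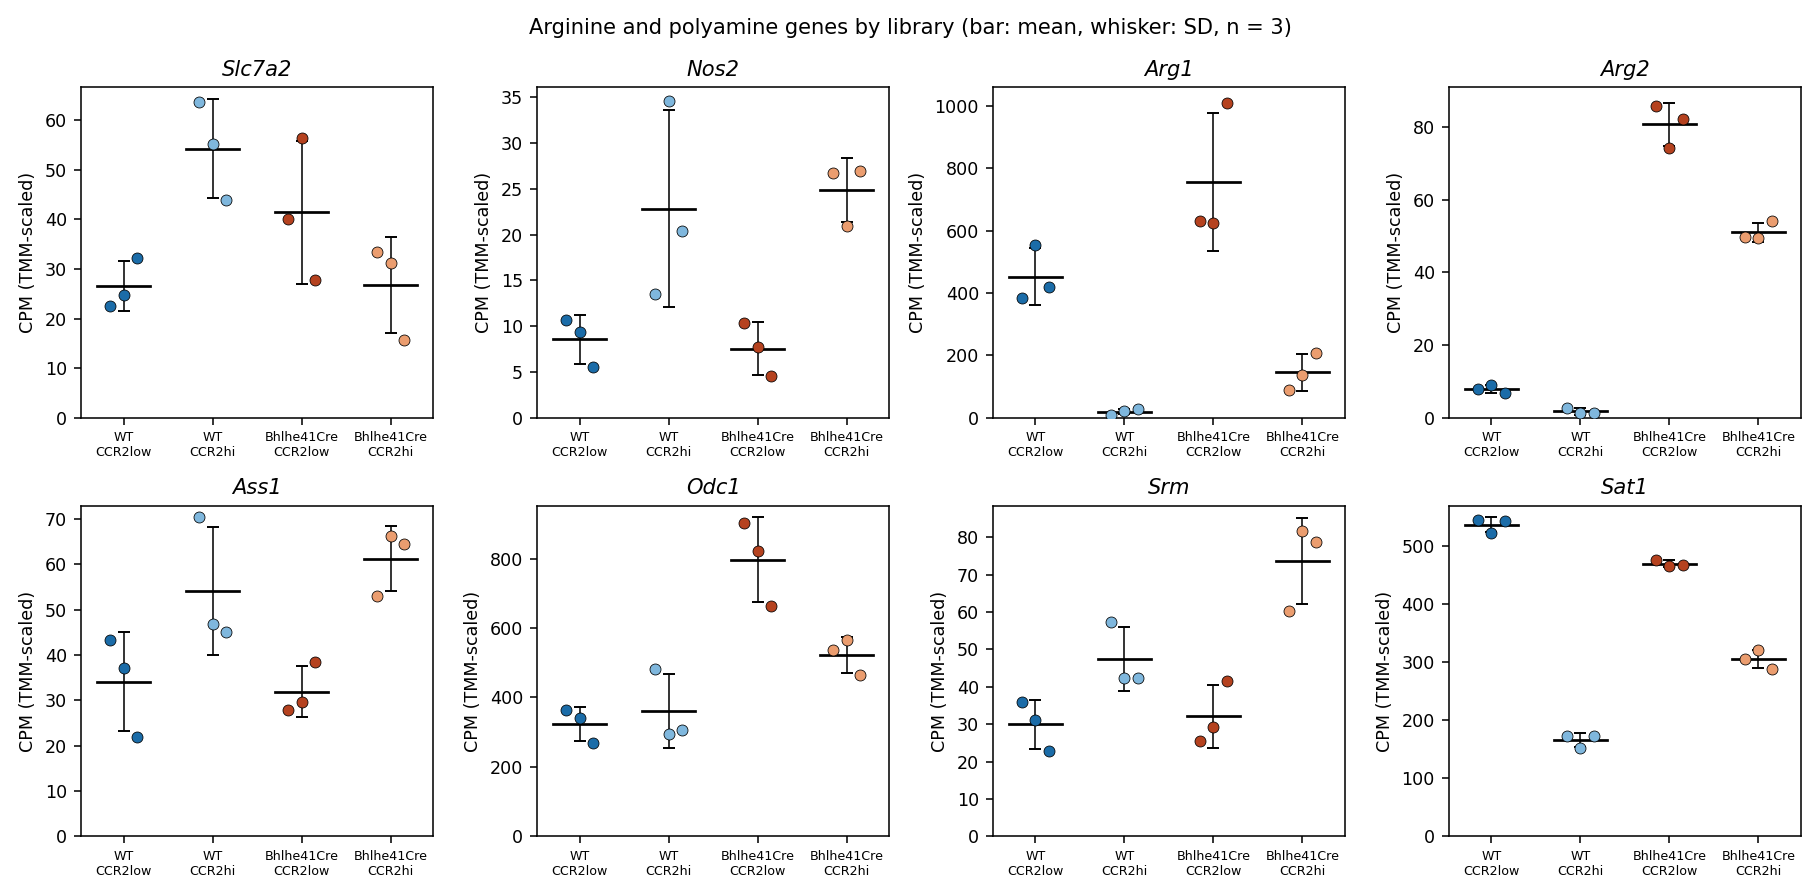
Level of each of the 8 genes (vertical axes, TMM-scaled CPM, each from 0) in the 12 libraries, by group, where points are libraries, bars are means and whiskers are SDs (n = 3). Arg2 is at 49.44 CPM or more in all Bhlhe41Cre libraries and at 8.902 CPM or less in all WT libraries, while Arg1 is highest in the CCR2low groups of both genotypes.

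The promoter windows of 3 of the 8 genes, Ass1, Odc1 and Sat1, are in the RefSeq promoter table (build GRCm38.p6, 250 bases before to 50 after the start), and they are shown because Bhlhe41, the gene carrying the insertion, is known to bind the E-box CACGTG. Arg1, Arg2, Nos2, Slc7a2 and Srm had no entry. The windows lie at chr2:31470020-31470319 on the plus strand (Ass1), chr12:17544623-17544922 on the plus strand (Odc1) and chrX:155216400-155216699 on the minus strand (Sat1). They are printed 5′ to 3′, with CACGTG in capitals.
Ass1: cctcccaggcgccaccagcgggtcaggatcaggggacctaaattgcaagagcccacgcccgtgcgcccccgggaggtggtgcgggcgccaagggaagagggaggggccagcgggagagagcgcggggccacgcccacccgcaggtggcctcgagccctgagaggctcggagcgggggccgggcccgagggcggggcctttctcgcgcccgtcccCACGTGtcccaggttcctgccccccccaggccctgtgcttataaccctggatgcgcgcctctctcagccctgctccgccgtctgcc
Odc1: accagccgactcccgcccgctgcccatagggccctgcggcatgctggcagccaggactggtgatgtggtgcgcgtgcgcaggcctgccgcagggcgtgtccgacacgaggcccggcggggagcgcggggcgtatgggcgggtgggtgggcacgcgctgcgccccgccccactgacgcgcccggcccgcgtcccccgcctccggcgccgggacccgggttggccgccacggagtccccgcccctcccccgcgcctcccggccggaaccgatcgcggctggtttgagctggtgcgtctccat
Sat1: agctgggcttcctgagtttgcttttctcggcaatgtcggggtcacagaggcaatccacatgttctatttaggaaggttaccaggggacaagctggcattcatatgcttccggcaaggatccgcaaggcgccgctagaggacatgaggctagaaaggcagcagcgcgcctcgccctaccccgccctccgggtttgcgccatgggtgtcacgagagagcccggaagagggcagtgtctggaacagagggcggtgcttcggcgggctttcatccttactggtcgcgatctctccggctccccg
CACGTG, which reads the same on both strands, occurred once in the Ass1 window, beginning at position -36 from the RefSeq start, and in neither of the others. GENCODE places the Ass1 start at 31470207, within the window and before the motif. The motif was present in 7.15% of the 32851 windows of 300 bases in the table. G and C made up 74% of the Ass1, 78% of the Odc1 and 60.3% of the Sat1 window. A match is a description of these letters only, and binding was not measured.

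Slc7a2 (ENSMUSG00000031596, protein-coding, chr8:40862396-40922308, plus strand, GRCm38) encodes a cationic amino acid transporter that brings arginine into activated macrophages. It read 22.53, 24.79 and 32.28 CPM in WT CCR2low, against 63.69, 55.25 and 43.82 CPM in WT CCR2hi. In Bhlhe41Cre it read 40.16, 56.39 and 27.69 CPM in CCR2low and 33.42, 31.12 and 15.62 CPM in CCR2hi. All WT CCR2hi libraries lay above all WT CCR2low libraries, whereas the gates overlapped in Bhlhe41Cre. The means were 26.53 ± 5.11, 54.25 ± 9.97, 41.41 ± 14.4 and 26.72 ± 9.68 CPM in that order (SD, n = 3 each). Slc7a2 was lower in CCR2low than in CCR2hi in WT (log2 fold change -1.03 ± 0.291 SE, adjusted p = 0.00773). In Bhlhe41Cre the gate difference was 0.63 (adjusted p = 0.0819), and -1.40 with macrophage scaling. With the replicate numbers as a block within genotype, that difference was called at 0.65 (adjusted p = 0.0211). The gate difference differed between genotypes by 1.66 ± 0.411 (adjusted p = 0.0211), which missed the threshold without WT CCR2low replicate 1 (adjusted p = 0.0543) or 2 (0.056) and in limma on log2(TPM + 1) (0.0661). Between genotypes, Slc7a2 was lower in Bhlhe41Cre CCR2hi than in WT CCR2hi (-1.02, adjusted p = 0.017), a call that ended without WT CCR2hi replicate 1 (0.0521) or Bhlhe41Cre CCR2hi replicate 3 (0.0641). In CCR2low its genotype difference of 0.64 was not called (adjusted p = 0.0905). It was called in 7 of 23 alternatives, at 1.02 without Bhlhe41Cre CCR2low replicate 3 (adjusted p = 0.0169), with a stricter filter (0.0426), with only the libraries compared (0.0487), and without WT CCR2hi replicate 1 (0.0413) or Bhlhe41Cre CCR2hi replicate 1 (0.0418) or 3 (0.0179), among others.

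Nos2 (ENSMUSG00000020826, protein-coding, chr11:78920787-78960254, plus strand), the inducible nitric oxide synthase, was the lowest or next to lowest of the 8 genes per unit length in every group, at a mean of 2.78 to 10.8 TPM (transcripts-per-million), a level adjusted for transcript length. It read 10.7, 9.405 and 5.559 CPM in WT CCR2low, against 13.51, 34.61 and 20.43 CPM in WT CCR2hi. In Bhlhe41Cre it read 10.33, 7.744 and 4.527 CPM in CCR2low and 26.76, 20.9 and 27.01 CPM in CCR2hi. Every CCR2hi library was above every CCR2low library in both genotypes. Nos2 was lower in CCR2low in WT (-1.42 ± 0.35 SE, adjusted p = 0.00334) and in Bhlhe41Cre (-1.72 ± 0.354, adjusted p = 0.00103). The genotypes overlapped in both gates. Their differences were -0.18 ± 0.357 in CCR2low (adjusted p = 0.712) and 0.12 ± 0.336 in CCR2hi (adjusted p = 0.805), the latter turning to -0.89 with macrophage scaling (adjusted p = 0.0328).

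Ass1 (ENSMUSG00000076441, protein-coding, chr2:31470207-31520672, plus strand), argininosuccinate synthase, had the gate pattern of Nos2. It read 43.29, 37.07 and 21.98 CPM in WT CCR2low, against 70.44, 46.9 and 44.99 CPM in WT CCR2hi. It read 27.79, 29.51 and 38.33 CPM in Bhlhe41Cre CCR2low and 53.04, 66.14 and 64.44 CPM in Bhlhe41Cre CCR2hi. The gates did not overlap in either genotype, and WT CCR2low replicate 3 was the lowest library. Ass1 was lower in CCR2low in WT by -0.67 (adjusted p = 0.0273) and in Bhlhe41Cre by -0.94 (adjusted p = 0.00455). The WT call ended without WT CCR2low replicate 3 (-0.42, adjusted p = 0.108). That library also stood apart in its adipocyte markers, at 0.0789% of counts over 5 genes against 0.00218 and 0.00411% in the other libraries of its group. The genotype differences were -0.10 in CCR2low (adjusted p = 0.763) and 0.18 in CCR2hi (adjusted p = 0.597), the latter turning to -1.08 with macrophage scaling (adjusted p = 0.0185).

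Arg1 (ENSMUSG00000019987, protein-coding, chr10:24915221-24927484, minus strand), the cytosolic arginase, showed the widest gate difference of the 8 genes with TMM scaling. It read 384.5, 554.9 and 419.2 CPM in WT CCR2low, against 9.76, 21.32 and 27.46 CPM in WT CCR2hi. In Bhlhe41Cre it read 631, 624.1 and 1010 CPM in CCR2low and 89.24, 138.5 and 208.5 CPM in CCR2hi. The gates were far apart in both genotypes, and all Bhlhe41Cre CCR2hi libraries lay above all WT CCR2hi libraries. Arg1 was higher in CCR2low by 4.54 ± 0.405 SE on the log2 scale in WT (23.2-fold, adjusted p = 6.73e-07) and by 2.38 ± 0.365 in Bhlhe41Cre (5.19-fold, adjusted p = 9.54e-05). With macrophage scaling these became 1.51 (adjusted p = 7.64e-05) and 0.39 (adjusted p = 0.194). The gate difference was smaller in Bhlhe41Cre by 2.16 on the log2 scale (interaction -2.16 ± 0.502, adjusted p = 0.0162). This call ended without Bhlhe41Cre CCR2low replicate 1 (adjusted p = 0.0501), without Bhlhe41Cre CCR2hi replicate 3 (-1.61, adjusted p = 0.067) and without the filter on low counts (adjusted p = 0.118).

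Between genotypes, Arg1 was 7.45-fold higher in Bhlhe41Cre CCR2hi than in WT CCR2hi (2.90 ± 0.378, adjusted p = 0.000118), and 1.89 on the log2 scale with macrophage scaling (adjusted p = 0.000139). In CCR2low the means were 452.8 ± 90.1 and 755.1 ± 221 CPM (SD, n = 3 each). The libraries did not overlap, but the difference of 0.74 ± 0.349 was not called (adjusted p = 0.104). It was called with only the 6 libraries compared in the fit (0.88, adjusted p = 0.0113) and without any of WT CCR2hi replicate 1 (adjusted p = 0.0165), Bhlhe41Cre CCR2hi replicate 1 (0.0372) or Bhlhe41Cre CCR2hi replicate 3 (0.0371), none of which is a CCR2low library. The count of the 8 genes called in this comparison then rose from 2 to 4 in each of these 4 settings.

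Arg2 (ENSMUSG00000021125, protein-coding, chr12:79130777-79156301, plus strand), the mitochondrial arginase, was the gene that differed most between genotypes. It read 7.775, 8.902 and 6.783 CPM in WT CCR2low (133 to 177 counts), against 2.711, 1.208 and 1.274 CPM in WT CCR2hi (23 to 55 counts). In Bhlhe41Cre it read 85.67, 74.12 and 82.31 CPM in CCR2low (1359 to 1600 counts) and 49.63, 49.44 and 54.03 CPM in CCR2hi (1035 to 1048 counts). No Bhlhe41Cre library came near a WT library. Arg2 was 10.3-fold higher in Bhlhe41Cre in CCR2low (3.37 ± 0.217 SE, adjusted p = 1.95e-06) and 29.2-fold higher in CCR2hi (4.87 ± 0.247, adjusted p = 1.18e-07). Neutrophil markers moved in the same direction. Their share was 0.023 to 0.0252% of counts in Bhlhe41Cre CCR2low against 0.0132 to 0.0196% in WT CCR2low, beside the CCR2hi shares given above. Of the 7, 1 was called higher in CCR2low and 7 in CCR2hi, where 16.4% and 16.2% of all genes were higher. In CCR2hi 10 of 17 macrophage, 4 of 6 monocyte and 3 of 6 dendritic cell markers were also higher and 0 lower. Of fibroblast and mural cell markers, 4 of 10 and 3 of 7 were lower there and 0 higher. The part of these markers was not tested. Both Arg2 differences were called in each alternative run, with macrophage scaling giving 3.42 (adjusted p = 0.000201) and 3.63 (adjusted p = 4.61e-05).

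Between the gates, Arg2 was higher in CCR2low by 2.16 in WT (adjusted p = 4.78e-06) and by 0.66 in Bhlhe41Cre (adjusted p = 0.0111), while with macrophage scaling it was lower in CCR2low, by -1.14 and -1.36. The Bhlhe41Cre call also ended with library totals as the only scaling (0.45, adjusted p = 0.0704) and in limma on log2(TPM + 1) (0.42, adjusted p = 0.109). The gate difference differed between genotypes by -1.50 ± 0.311 (adjusted p = 0.00947), and by -0.21 (adjusted p = 0.762) with macrophage scaling.

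The balance between the arginases and between Arg1 and Nos2 can be read within a library, where no scaling of the library enters. On the TPM scale, which is per transcript length, Arg2 was 1.55 to 1.95% of the 2 arginases together in WT CCR2low and 7.52 to 11.9% in Bhlhe41Cre CCR2low. It was 4.37, 4.98 and 18.5% in WT CCR2hi, where replicate 1 combined the lowest Arg1 with the highest Arg2, and 20.7 to 35.9% in Bhlhe41Cre CCR2hi. The shares did not overlap between genotypes in either gate. The ratio of Arg1 to Nos2 was 107 to 232 in WT CCR2low, 173 to 680 in Bhlhe41Cre CCR2low, 1.92 to 3.96 in WT CCR2hi and 9.88 to 23.6 in Bhlhe41Cre CCR2hi. Arg1 thus exceeded Nos2 per length in all 12 libraries (in counts, which are not per length, the mean log2 ratio was -0.25 in WT CCR2hi and positive in the other groups), and the CCR2hi ratios of the genotypes did not overlap, while the CCR2low ratios did. The mix of cells in a library still enters these ratios and shares, and its part was not tested. No test was run on the ratios.

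**Figure D2:**
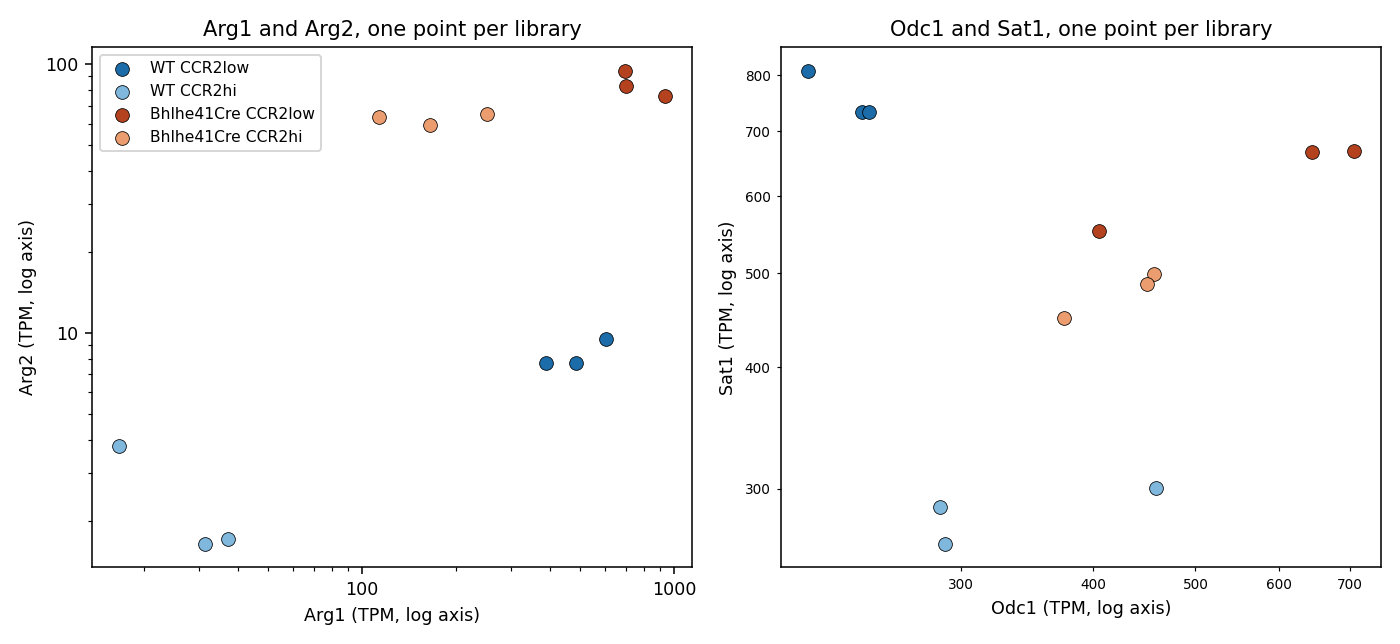
Left, Arg2 against Arg1, and right, Sat1 against Odc1, each in TPM on log axes with 1 point per library, coloured by group. The 6 Bhlhe41Cre libraries lie between 59.24 and 94.16 TPM of Arg2 and the 6 WT libraries at 9.47 TPM or less, and the 3 WT CCR2low libraries stand alone at low Odc1 and high Sat1.

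Odc1 (ENSMUSG00000011179, protein-coding, chr12:17544794-17551505, plus strand), ornithine decarboxylase, makes putrescine and is the rate-limiting enzyme of polyamine synthesis. It read 362.5, 340.8 and 268.9 CPM in WT CCR2low, against 482.9, 294.2 and 305.2 CPM in WT CCR2hi. In Bhlhe41Cre it read 903, 822.5 and 662.6 CPM in CCR2low and 537.4, 564.4 and 464.4 CPM in CCR2hi. Only the Bhlhe41Cre CCR2low libraries stood clear of all others, and the WT gates overlapped. Odc1 was 2.46-fold higher in Bhlhe41Cre CCR2low than in WT CCR2low (1.30 ± 0.2 SE, adjusted p = 0.000323), and 1.36 on the log2 scale with macrophage scaling (adjusted p = 0.0269). In CCR2hi the difference of 0.53 was not called (adjusted p = 0.0547). It was called in 8 of 23 alternatives, at 0.79 without WT CCR2hi replicate 1, the highest WT library (adjusted p = 0.00316), and it was -0.71 with macrophage scaling (adjusted p = 0.107). Between the gates Odc1 differed by -0.15 in WT (adjusted p = 0.517), and by -3.49 with macrophage scaling (adjusted p = 5.23e-07), which called 94.9% of all genes lower. In Bhlhe41Cre it was higher in CCR2low by 0.61 (adjusted p = 0.0188) but lower by -1.41 with macrophage scaling, and the call ended without Bhlhe41Cre CCR2low replicate 1 (adjusted p = 0.0733) or CCR2hi replicate 3 (adjusted p = 0.0703), with library totals as the only scaling (0.41, adjusted p = 0.103) and in limma on log2(TPM + 1) (0.42, adjusted p = 0.124). The test of the difference between these gate differences gave 0.76 (adjusted p = 0.0895), but it was called in 6 of 23 alternatives. With the replicate block within genotype it gave 0.73 (adjusted p = 0.0409). With macrophage scaling the test gave 2.08 (adjusted p = 0.0178), and it called 31.9% of all genes positive.

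Srm (ENSMUSG00000006442, protein-coding, chr4:148591503-148594993, plus strand), spermidine synthase, was lower in CCR2low. It read 35.84, 31.23 and 22.8 CPM in WT CCR2low, against 57.33, 42.38 and 42.49 CPM in WT CCR2hi. It read 25.49, 29.34 and 41.51 CPM in Bhlhe41Cre CCR2low and 60.38, 81.8 and 78.87 CPM in Bhlhe41Cre CCR2hi. The gates did not overlap in either genotype. The differences were -0.66 in WT (adjusted p = 0.0167) and -1.20 in Bhlhe41Cre (adjusted p = 0.000353), and the WT call ended without WT CCR2low replicate 3 (-0.49, adjusted p = 0.0748). Between genotypes Srm differed by 0.10 in CCR2low (adjusted p = 0.733). It was higher in Bhlhe41Cre CCR2hi by 0.64 (adjusted p = 0.0358), and -0.59 with macrophage scaling. That call also ended without any of 4 of the 6 CCR2hi libraries: WT replicate 2 (adjusted p = 0.125) or 3 (0.115) and Bhlhe41Cre replicate 2 (0.119) or 3 (0.0921). Without Bhlhe41Cre CCR2hi replicate 3, 3 of the 8 genes were called in this comparison.

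Sat1 (ENSMUSG00000025283, protein-coding, chrX:155213132-155216449, minus strand), the acetyltransferase of polyamine breakdown, varied little between libraries of a group. It read 545.3, 523.4 and 544.4 CPM in WT CCR2low, against 172.7, 151.8 and 173.9 CPM in WT CCR2hi. It read 476.9, 465.8 and 468.2 CPM in Bhlhe41Cre CCR2low and 305.6, 320.6 and 289.3 CPM in Bhlhe41Cre CCR2hi. The 4 groups did not overlap at all. Sat1 was higher in CCR2low by 1.69 ± 0.109 SE in WT (adjusted p = 7.99e-08) and by 0.62 ± 0.107 in Bhlhe41Cre (adjusted p = 0.000235), and lower in CCR2low with macrophage scaling, by -1.53 and -1.40. The gate difference was smaller in Bhlhe41Cre (interaction -1.07 ± 0.151, adjusted p = 0.00136), and 0.13 (adjusted p = 0.808) with macrophage scaling. Between genotypes Sat1 was higher in Bhlhe41Cre CCR2hi by 0.88 ± 0.107 (adjusted p = 7.45e-05), but -0.27 (adjusted p = 0.415) with macrophage scaling. In CCR2low the difference was -0.19 ± 0.106 (adjusted p = 0.159). Sat1 is X-linked, and Xist was present in the Bhlhe41Cre libraries and nearly absent in WT. Its part in these differences was not tested.

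The ratio of Odc1 to Sat1, again in TPM, was 0.267 to 0.336 in WT CCR2low, 0.999 to 1.53 in WT CCR2hi, 0.734 to 1.06 in Bhlhe41Cre CCR2low, and in Bhlhe41Cre CCR2hi 0.835 to 0.924. WT CCR2low was therefore the only group with more Sat1 than Odc1 in every library by over 1 log2 unit, at a mean log2 ratio of -1.69 ± 0.185 (SD, n = 3), against 0.25 ± 0.32, -0.14 ± 0.274 and -0.17 ± 0.0812 in the other groups. In counts the mean log2 ratios were -0.74, 1.08, 0.75 and 0.77, so WT CCR2low was again the lowest.

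**Figure D3:**
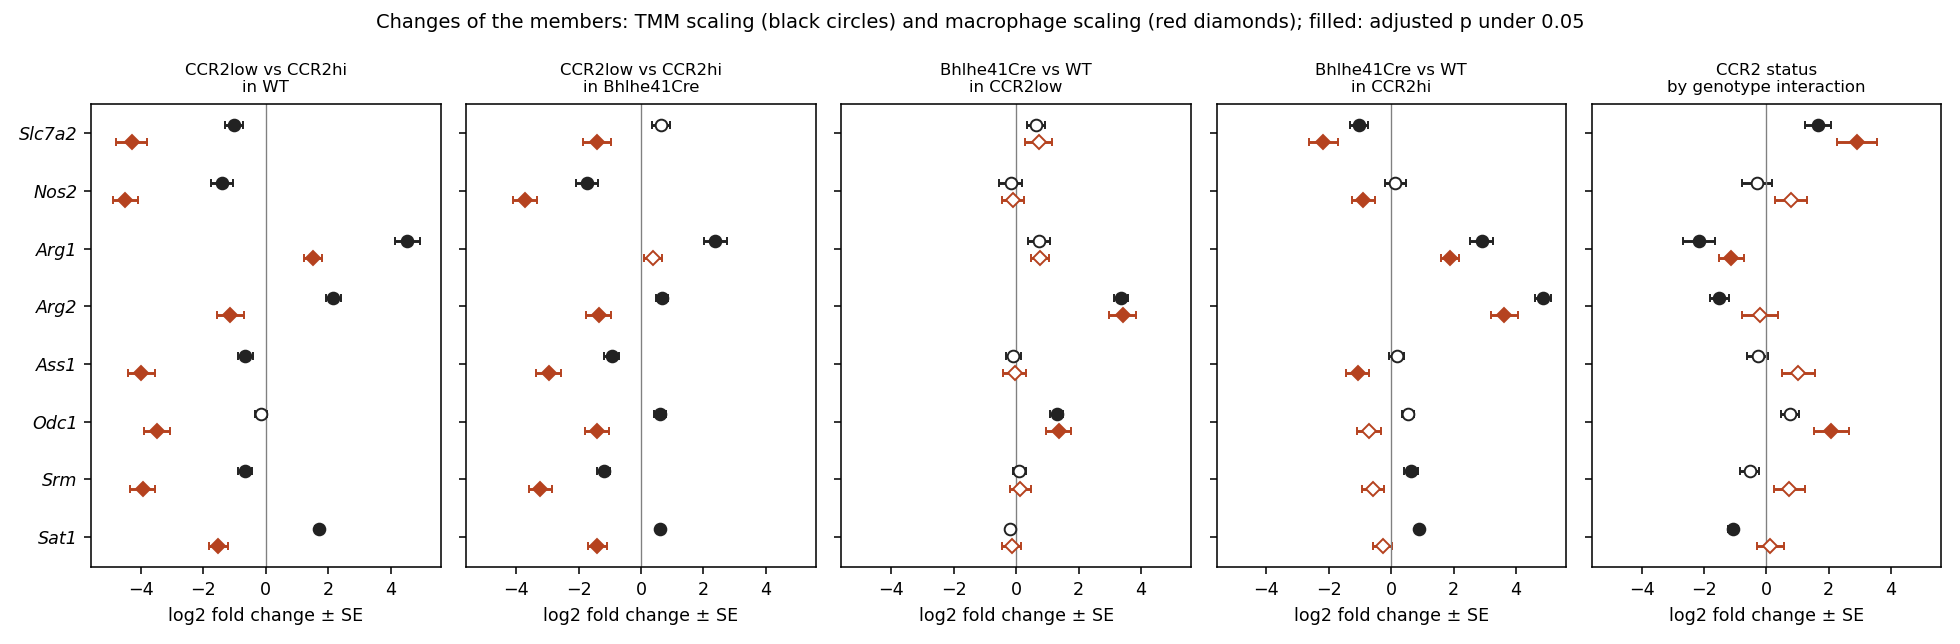
Log2 fold change (horizontal axes, whiskers SE) of the 8 genes in the 4 comparisons and the interaction, with TMM scaling (black circles) and macrophage scaling (red diamonds), filled where the adjusted p was under 0.05. The genotype differences in CCR2low are nearly the same under both scalings (Arg2 3.37 and 3.42, Odc1 1.30 and 1.36), while between the gates macrophage scaling moves every gene to the left and turns Arg2 and Sat1 negative in both genotypes and Slc7a2 and Odc1 negative in Bhlhe41Cre.

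Ordered by mean TPM, WT CCR2low had Sat1 (757 ± 43.7, SD, n = 3), Arg1 (492 ± 108) and Odc1 (234 ± 16.5), each clear of the next, then Srm (34.4 ± 5.64) and Ass1 (29.5 ± 7.97), which overlapped, and Arg2 (8.29 ± 1.02), Slc7a2 (6.46 ± 1.27) and Nos2 (3.08 ± 0.857). In WT CCR2hi, Odc1 (345 ± 98.3) and Sat1 (284 ± 19) led and overlapped, Srm (70.9 ± 14.4) and Ass1 (61.5 ± 17.7) overlapped, and Arg1 stood at 28.4 ± 10.6 TPM. In Bhlhe41Cre CCR2low, Arg1 (776 ± 135), Sat1 (629 ± 66) and Odc1 (585 ± 158) led, and Arg2 came next at 84.4 ± 9.23 TPM. Sat1 and Odc1 overlapped there, and Arg1 was above Sat1 in every library. Odc1 overlapped with Arg1, and was above it in replicate 1 (705.72 against 695.07 TPM). In Bhlhe41Cre CCR2hi the order was Sat1 (479 ± 25.8), Odc1 (428 ± 45.4), Arg1 (176 ± 69.5), Srm (98.5 ± 12.8), Ass1 (63 ± 3.8) and Arg2 (62.6 ± 3.07). There Sat1 overlapped with Odc1, Ass1 with Arg2, and Slc7a2, last, with Nos2. Arg2 was rank 8 of the 8 genes in WT CCR2hi and rank 4 in Bhlhe41Cre CCR2low.

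For each gene, the genes most like it across the 12 libraries were ranked by Pearson correlation of log2 CPM among 10543 candidates. These correlations follow the 4 groups and are descriptions of 12 points. Nearest to Arg1 were Dnajc12 (r = 0.995), Cfp, which encodes properdin (0.995), and Wfdc17 (0.994). Nearest to Arg2 were Vps37b (0.993), Gch1 (0.992), the first enzyme of tetrahydrobiopterin synthesis and so of the cofactor of nitric oxide synthase, and Mefv (0.991), which encodes pyrin. Gch1 rose in Bhlhe41Cre by 1.17 in CCR2low (adjusted p = 0.000242) and 1.87 in CCR2hi (adjusted p = 1.09e-05; 0.62, adjusted p = 0.143, with macrophage scaling), where Nos2 differed by -0.18 and 0.12. Nearest to Nos2 were Chst7 (0.944), Cdh13 (0.942) and Apln (0.941). Near to Sat1 were Gdf15 (0.987) and Nfkbia (0.986). Nearest to Ass1 were Dut (0.964), Tcf19 (0.963) and Cdc20 (0.961), genes of nucleotide supply and cell division, and nearest to Srm were Sec61a1, Gar1 and Ssr2 (0.975 to 0.980). Nearest to Odc1 were Eif2s1, Ercc6l and Ufm1 (0.959 to 0.970) and to Slc7a2 Arid2, Rassf8 and Mbd5 (0.921 to 0.937). Among the 8 genes themselves, the closest pairs were Arg1 with Sat1 (0.942), Ass1 with Srm (0.939) and Arg2 with Odc1 (0.819).

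The wider pathway was read from 6 lists that together hold 71 symbols, of which 63 were tested. With TMM scaling, CCR2low exceeded CCR2hi for 29 of the 63 genes in WT and was below it for 17, and in Bhlhe41Cre for 20 and 19, whereas macrophage scaling left 0 higher and 61 and 58 lower, near the shares of all genes under that scaling. Between genotypes, 12 were higher and 18 lower in Bhlhe41Cre in CCR2low (6 and 7 with macrophage scaling), and 21 were higher and 6 lower in CCR2hi (0 and 43 with macrophage scaling). With TMM scaling these are 73%, 61.9%, 47.6% and 42.9% of the 63 genes called, against the backgrounds of all genes given above. Between the gates, 29.8% of all genes were higher and 30.0% lower in WT, and 24.9% and 29.1% in Bhlhe41Cre. The counts of each list below are to be read beside the shares of all genes under the same scaling. The interaction was called for 10 of the 63 (15.9%), 2 positive and 8 negative, beside 12.6% of all genes.

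In arginine transport (6 genes tested), 2 were higher and 3 lower in CCR2low in both genotypes with TMM scaling, and 0 higher and 6 and 5 lower with macrophage scaling. Slc7a7, the light chain of an exporter of cationic amino acids, had a level of 91.2 ± 12.2 CPM in WT CCR2low, against 18.9 ± 3.94 CPM in WT CCR2hi (SD, n = 3), a difference of 2.27 (adjusted p = 4.32e-07) that became -0.86 with macrophage scaling. Slc7a6, a related light chain, was lower in CCR2low (-1.49 in WT and -1.34 in Bhlhe41Cre). Slc3a2, the heavy chain that both need, rose in Bhlhe41Cre by 0.56 in CCR2low (adjusted p = 0.0113) and 1.02 in CCR2hi (adjusted p = 0.000405), but with macrophage scaling these were 0.60 (adjusted p = 0.237) and -0.20 (adjusted p = 0.591). Slc25a29, of the same list, was lower in Bhlhe41Cre by -1.83 in CCR2low (adjusted p = 0.0118) and by -1.12 in CCR2hi (adjusted p = 0.0437). The CCR2low call ended in 2 of 22 alternatives and the CCR2hi call in 12 of 23. The list of citrulline, urea cycle and creatine genes had 3 of 4 tested higher in CCR2low in each genotype (0 with macrophage scaling, and 4 and 2 lower). The smallest p-value belonged to the creatine transporter Slc6a8 (1.41 in WT and 1.79 in Bhlhe41Cre, but -1.84 and -0.23 with macrophage scaling).

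In the list of nitric oxide synthesis and its control (12 tested), 4 were higher and 4 lower in CCR2low in WT, and 1 and 5 in Bhlhe41Cre, while all 12 were lower in both with macrophage scaling. Ddah2, which degrades an endogenous inhibitor of nitric oxide synthase, had a level of 25.2 ± 4.73 CPM in WT CCR2low, against 126 ± 5.59 CPM in WT CCR2hi (-2.32, adjusted p = 1.2e-07), and the Bhlhe41Cre gates differed by -2.58 (adjusted p = 1.1e-07). Between genotypes 2 rose and 5 fell in CCR2low (1 and 1 with macrophage scaling), and 3 rose and 1 fell in CCR2hi (0 and 8). Ddah1, the paralogue of Ddah2, was lower in Bhlhe41Cre in both gates (-1.94, adjusted p = 0.00137, and -2.01, adjusted p = 0.000797). Markers of some other cell types moved with Ddah1. The fibroblast shares given above were lower in Bhlhe41Cre CCR2hi. In CCR2low 7 of 10 fibroblast, 7 of 7 mural cell and 6 of 6 cardiomyocyte markers were lower in Bhlhe41Cre and 0 higher. Their list medians were -1.03, -1.86 and -2.23, where 26.7% of all genes were lower. In CCR2hi 4, 3 and 0 of them were lower and 0 higher. Their medians there were -0.74, -0.18 and -0.02, where 15.9% of all genes were lower. Of 7 endothelial markers, 1 was lower in CCR2low and 1 higher in CCR2hi. In CCR2low the mural cell share was 0.0104 to 0.0199% in Bhlhe41Cre and 0.0432 to 0.0474% in WT, the cardiomyocyte share 0.00216 to 0.00272% and 0.00821 to 0.014%, and their part was not tested. For the list from ornithine to proline and glutamate, 7 genes were tested. In CCR2low 2 were higher and 3 lower in WT, and 1 and 3 in Bhlhe41Cre. With macrophage scaling all 7 were lower in both. Between genotypes 0 rose and 3 fell in CCR2low, and 1 rose and 0 fell in CCR2hi. Macrophage scaling called 0 in CCR2low and 6 lower in CCR2hi. Pycr1, which makes proline, was lower in CCR2low by -2.89 in WT (adjusted p = 5.35e-07) and by -3.53 in Bhlhe41Cre (adjusted p = 3.08e-07). Between genotypes in CCR2low, Pycr1 was lower in Bhlhe41Cre by -1.11 (adjusted p = 0.00674), a call that ended in 4 of 23 alternatives. Prodh, which degrades proline, was higher in WT CCR2low by 2.12 (adjusted p = 3.59e-06; -1.02 with macrophage scaling). In Bhlhe41Cre it was higher in CCR2low by 0.58 (adjusted p = 0.0394), -1.46 with macrophage scaling, and the call ended in 12 of 24 alternatives, among them the replicate block within genotype (0.57, adjusted p = 0.0561), library totals as the only scaling (0.37, adjusted p = 0.158) and leaving out Bhlhe41Cre CCR2low replicate 3 (0.43, adjusted p = 0.13).

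**Figure D4:**
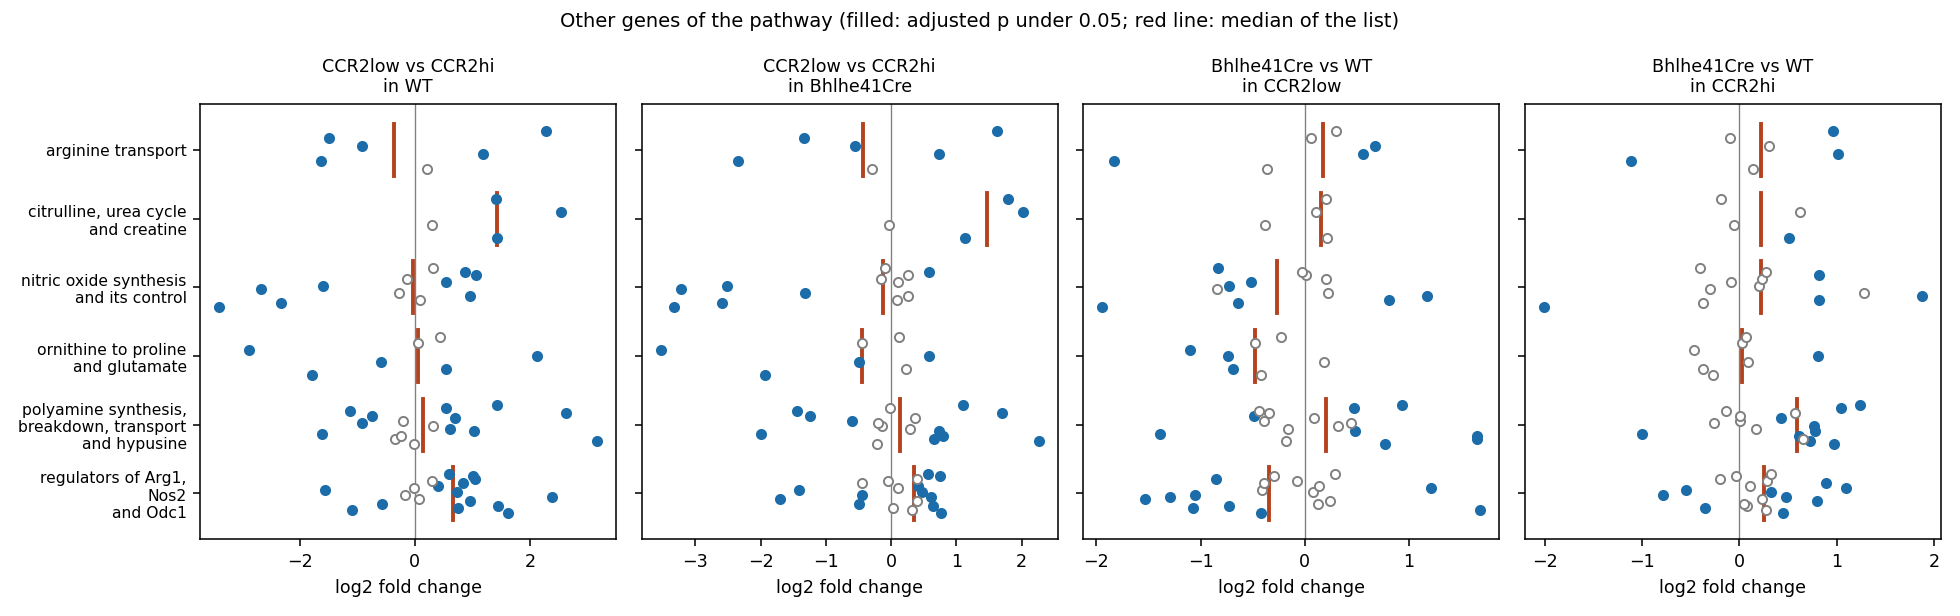
Log2 fold change (horizontal axes) of the 63 other pathway genes tested, by list, in the 4 comparisons, with 1 point per gene, filled where the adjusted p was under 0.05, and a red line at the list's median. In the polyamine list 6 genes are higher and 2 lower in Bhlhe41Cre in CCR2low, and 8 are higher and 1 lower in CCR2hi, with TMM scaling as drawn; with macrophage scaling they are 3 and 1, and 0 and 7.

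Among 16 tested genes of polyamine synthesis, breakdown, transport and hypusine, 6 rose and 2 fell in Bhlhe41Cre in CCR2low (3 and 1 with macrophage scaling), and 8 rose and 1 fell in CCR2hi (0 and 7 with macrophage scaling). The list medians were 0.21 and 0.59 with TMM scaling, against -0.18 and -0.03 for all genes. Of all genes, 16.4% rose and 26.7% fell in CCR2low, and 16.2% and 15.9% in CCR2hi, where macrophage scaling called 1.79% and 70.8%. Azin1, which frees ornithine decarboxylase from its antizyme, read 86.8 ± 14.9 CPM in WT CCR2low and 274 ± 62.7 CPM in Bhlhe41Cre CCR2low (SD, n = 3), a rise of 1.66 (adjusted p = 0.00015). Azin2, its paralogue, fell in both gates (-1.39, adjusted p = 0.00017, and -0.999, adjusted p = 0.000914). Spermine synthase, Sms, rose by 1.24 in CCR2hi (adjusted p = 3.1e-05), a call that ended with macrophage scaling (0.10, adjusted p = 0.757). Amd1, which supplies the aminopropyl donor to Srm and Sms and is named here after its values were seen, rose by 0.77 in CCR2low (adjusted p = 0.00108) and 0.97 in CCR2hi (adjusted p = 0.000306), but with macrophage scaling these were 0.82 (adjusted p = 0.101) and -0.20 (adjusted p = 0.581). Between the gates this list had 7 higher and 4 lower in WT CCR2low, and 6 higher and 4 lower in Bhlhe41Cre CCR2low, but 0 higher and 14 lower in each with macrophage scaling. It was led by the lysosomal polyamine exporter Atp13a2, with a WT CCR2low level of 534 ± 33.6 CPM and a WT CCR2hi level of 59.6 ± 18.9 CPM (3.16, adjusted p = 3.77e-07; 0.08, adjusted p = 0.746, with macrophage scaling). Among genes lower in CCR2low, the smallest p-values belonged to Azin2 in WT (-1.61, adjusted p = 4.43e-06) and Oaz2 in Bhlhe41Cre (-1.24, adjusted p = 1.37e-06).

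Of 18 regulators of Arg1, Nos2 and Odc1, 2 rose and 7 fell in Bhlhe41Cre in CCR2low (2 and 4 with macrophage scaling), and 6 rose and 3 fell in CCR2hi (0 and 15). Of all genes, 16.4% rose and 26.7% fell in CCR2low, and 16.2% and 15.9% in CCR2hi. With macrophage scaling 6.53% and 10.6% did so in CCR2low, and 1.79% and 70.8% in CCR2hi. Hif1a, the oxygen-regulated factor, read 76 ± 7.76 CPM in WT CCR2low and 244 ± 63 CPM in Bhlhe41Cre CCR2low (SD, n = 3), a rise of 1.69 (adjusted p = 9.12e-05). Ifngr1, the ligand-binding chain of the interferon gamma receptor, fell from 269 ± 19 to 128 ± 9.83 CPM in the same comparison (-1.08, adjusted p = 4.52e-05). In CCR2hi the smallest p-values belonged to Nfkb1 (1.09, adjusted p = 0.00223; -0.11 with macrophage scaling) and to Klf4, which fell by 0.79 on the log2 scale (adjusted p = 0.00161). Between the gates 11 were higher and 3 lower in WT CCR2low, and 7 and 4 in Bhlhe41Cre CCR2low, where macrophage scaling left all 18 lower. Irf8 was higher in WT CCR2low by 2.38 (adjusted p = 1.53e-07; -0.77 with macrophage scaling) and Myc lower by -1.56 (adjusted p = 9.67e-06). In Bhlhe41Cre, Stat6 was higher in CCR2low by 0.75 (adjusted p = 0.000139; -1.27 with macrophage scaling) and Irf1 lower by -1.71 (adjusted p = 8.6e-06).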

How the data were processed

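The submitters' processing notes name CASAVA 1.8, STAR 2.4.0j, RSEM and the build mm10. The sources used here give no annotation or strand setting. The deposited tables hold the authors' expected counts, listed by Ensembl gene and whole, and the authors' TPM values. In both, the Bhlhe41Cre columns carry another genotype name and were matched by gate and replicate number. The labels' other fields of these samples are shifted, so groups were taken from sample titles.

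The deposited counts were filtered with filterByExpr, scaled with TMM and fitted with edgeR 4.0.16 in R 4.3.3 (glmQLFit robust, two-sided glmQLFTest, Benjamini-Hochberg adjustment) over 12 libraries and 4 group means, with 8 residual degrees of freedom and a common biological coefficient of variation of 18.9%. CPM are from the same fit, and ranked correlations used a prior count of 2 and a mean of at least 5 CPM. TPM served to compare genes within a library. Gene positions are from GENCODE mouse release 21 on GRCm38, in which 99.66% of the identifiers were found. The scripts were tested on simulated counts with known changes.

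The 8 genes, the 6 pathway lists and the marker lists were chosen with earlier results of these data known. Named beside the 8 genes are, from each pathway list and comparison, the called gene with the smallest p in each direction, the 3 genes most like each of the 8, and checks of the labels. Amd1 is an exception, and 1 gene near Sat1 is not reported here. Deviations from the group means of same-numbered Bhlhe41Cre libraries of the 2 gates correlated at 0.227, 0.119 and 0.396 over genes. Those with different numbers correlated at -0.348 to 0.215. The 0.215, of CCR2low replicate 2 with CCR2hi replicate 1, lay above the 0.119 of number 2. Number 3 had the highest value, and both its libraries also had few Y-linked counts, so pairing of all Bhlhe41Cre gates by number is not established. In WT same-numbered libraries correlated at -0.064, 0.028 and -0.048. The labels do not say whether they come from the same animals, so pairing is not established there either. Alternatives were other scalings, filters, DESeq2 1.42.0, limma 3.58.1 on log2(TPM + 1) and log2(TPM + 0.1), fits of only the libraries compared, replicate blocks and leaving out each library.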

Additional observations from a re-analysis of the deposited data

Results flagged for a closer look

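The difference between the gates was itself different between the genotypes, by edgeR's interaction test, for 4 of the 8 genes and for 10 of the 63 pathway genes tested (15.9%), of which 5 are named, beside 12.6% of all genes. A negative value means that CCR2low exceeded CCR2hi by less in Bhlhe41Cre than in WT. The values on the log2 scale were -2.16 for Arg1 (adjusted p = 0.0162), -1.5 for Arg2 (0.00947), -1.07 for Sat1 (0.00136) and 1.66 for Slc7a2 (0.0211). Among the pathway genes they were -1.77 for Irf8 (0.00107), -1.54 for Prodh (0.00953), -0.81 for Pts, an enzyme of tetrahydrobiopterin synthesis (0.0261), 1.41 for Hif1a (0.00872) and 1.04 for Azin1 (0.0431). With macrophage scaling the values for Sat1 and Pts were 0.13 and 0.38, and the calls of Arg2 (-0.21), Irf8 (-0.66) and Prodh (-0.44) ended. The Pts and Azin1 calls also ended in 10 alternatives each. Odc1, not called here (0.76, adjusted p = 0.0895), was called in 6 of 23 alternatives, among them macrophage scaling (2.08, adjusted p = 0.0178).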

How the results depend on the processing

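Over 936 alternative values for the 8 genes, 862 kept their side of the threshold, 30 lost a call, 33 gained one and 11 changed sign with a call in either setting, and for the pathway genes named 996 of 1079 kept their side, 68 lost a call and 15 changed sign. Each of these changes of sign came with macrophage scaling. Between the gates in WT it gave -1.14 for Arg2, -1.53 for Sat1, -0.86 for Slc7a7, -1.84 for Slc6a8, -2.13 for Pts, -1.02 for Prodh and -0.77 for Irf8. In Bhlhe41Cre it gave -1.36 for Arg2, -1.40 for Slc7a2, -1.41 for Odc1, -1.40 for Sat1, -0.39 for Slc7a7, -0.23 for Slc6a8, -1.44 for Qdpr, -1.46 for Prodh and -1.27 for Stat6. Between genotypes in CCR2hi it gave -0.89 for Nos2, -1.08 for Ass1, -0.27 for Sat1, -0.59 for Srm, -0.20 for Slc3a2, -0.61 for Asl, -0.26 for Prodh and -0.11 for Nfkb1, and for the interaction 0.13 for Sat1 and 0.38 for Pts. Macrophage scaling called 14320 and 13688 genes between the gates, 2558 and 10862 between genotypes and 4905 for the interaction, against 8949, 8094, 6441, 4808 and 1884. Limma called 1190 (TPM + 1) and 940 (TPM + 0.1) for the interaction. Library totals as the only scaling changed the share of higher among called genes from 46.1 to 32% between the Bhlhe41Cre gates, from 50.4 to 61.8% between genotypes in CCR2hi and from 37.7 to 19.5% for the interaction. Of the 8 genes, 4 were called between genotypes in CCR2low with the stricter filter and with only the libraries compared. Leaving out 1 library gave 2 to 4 of the 8 genes there, 3 to 6 between genotypes in CCR2hi, and 871 to 2801 genes for the interaction. Leaving out WT CCR2hi replicate 1 or any Bhlhe41Cre CCR2hi library shifted the median of all genes between the WT gates by -0.19 to -0.21 (the cause was not tested). Across genotypes the samples share only a number: the replicate block gave 6099 and 4473 genes called and added Arg1 in CCR2low (0.70, adjusted p = 0.0355) and Odc1 in CCR2hi (0.56, adjusted p = 0.0178), while Srm missed the threshold (0.64, adjusted p = 0.0566). Within genotype, the replicate block changed no other call among the 8 genes than those of Slc7a2 and Odc1 given above. Leaving out both Bhlhe41Cre libraries numbered 3 was added after the data were seen. Between genotypes Srm then missed the threshold in CCR2hi (adjusted p = 0.0565). Slc7a2 in CCR2low (0.86, adjusted p = 0.00589) and Odc1 in CCR2hi (0.61, adjusted p = 0.0488) were then called. Counts of 23 to 55 limit the precision of Arg2 in WT CCR2hi.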
